A study of Mus musculus with 8 samples.

Results

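The miR-17 to miR-92a cluster of mouse chromosome 14 is a group of miRNA hairpins cut from a single primary transcript. Its members were chosen by name as the 7 mature products mmu-miR-17-5p, mmu-miR-17-3p, mmu-miR-18a-5p, mmu-miR-19a-3p, mmu-miR-20a-5p, mmu-miR-19b-3p and mmu-miR-92a-3p (written without the mouse prefix in places), out of 1881 miRNAs with probes on the arrays. They were measured in skin of NcstnΔKC mice (4 samples) and of normal mice (4 samples), with 1 array per sample. All mice were males that carried Ncstn flx/flx; Krt14 CreER+/-, in which tamoxifen activates a Cre recombinase driven by the promoter of keratin 14, a keratin of basal keratinocytes. NcstnΔKC mice received 20 mg of tamoxifen per kg body weight by oral gavage from 8 weeks of age, daily for 5 days and then every 10 days, while normal mice received corn oil. Skin, named as lesions in the labels, was taken from both groups at 16 weeks. The protein encoded by Ncstn, nicastrin, belongs to γ-secretase, which cuts Notch receptors. Tamoxifen and the deletion differ together between the groups and cannot be told apart, and Ncstn mRNA is not measured by these arrays. No label states that each sample is a different mouse. The p-values therefore measure only how these samples spread, and part of that spread may be technical.

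The primary transcript of the cluster is processed by Drosha and Dicer into hairpins and then into mature strands, usually with 1 strand of each hairpin being retained more than the other. A mature miRNA guides Argonaute proteins to messenger RNAs mainly through its seed, the bases from 2 to 8, so that products with the same seed share many targets. The cluster is transcribed under the control of MYC and E2F factors, is abundant in dividing cells and was named an oncogenic cluster for its role in B cell lymphoma. Paralogous clusters lie on the X chromosome and within the Mcm7 gene on chromosome 5.

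The sequences show which products share a seed and how little separates some of them. They are given 5′ to 3′ in transcript order, with the seed in capitals, from RefSeq (GRCm38.p6, plus strand of chromosome 14). The 6 hairpins span 836 bases at chr14:115043671-115044506.
mmu-miR-17-5p, chr14:115043684-115043706: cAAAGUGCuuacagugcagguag
mmu-miR-17-3p, chr14:115043721-115043742: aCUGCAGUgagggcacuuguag
mmu-miR-18a-5p, chr14:115043867-115043889: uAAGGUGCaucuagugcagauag
mmu-miR-19a-3p, chr14:115044048-115044070: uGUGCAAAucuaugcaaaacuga
mmu-miR-20a-5p, chr14:115044183-115044205: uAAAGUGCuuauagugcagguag
mmu-miR-19b-3p, chr14:115044358-115044380: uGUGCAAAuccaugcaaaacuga
mmu-miR-92a-3p, chr14:115044476-115044496: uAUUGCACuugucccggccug

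The seed AAAGUGC was shared by miR-17-5p and miR-20a-5p, and the seed GUGCAAA by miR-19a-3p and miR-19b-3p. With positions counted from 1 at the 5′ end, miR-20a-5p differs from miR-17-5p by C1U and C12U, and miR-19b-3p differs from miR-19a-3p by U11C alone. The same mature miR-19b-3p and miR-92a-3p are also encoded on the minus strand of the X chromosome, at chrX:52741991-52742013 and chrX:52741854-52741874, so their signal cannot be divided between the clusters. The closest relative of miR-17-5p, miR-106a-5p of the X chromosome, differs from it by U10A.

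All 8 arrays were on 1 slide, with every NcstnΔKC array in slide row 1 and every normal array in row 2, so row and group cannot be told apart. Between 198 and 273 miRNAs were detected per array, and having 4 arrays per group limits how precise each value is. Levels are given as log2 of the processed intensity summed over the probes of a miRNA, after division by the array's 75th percentile over the 301 probes detected on all arrays, so that 0 is that percentile. It lay between 922.0 and 1160.1 intensity units on NcstnΔKC arrays and between 1215.3 and 1314.2 on normal arrays. Scaling therefore raised NcstnΔKC levels relative to normal ones. Levels below -4.97 were set to that floor. Differences are NcstnΔKC minus normal, and their median over the 222 miRNAs tested was -0.23. In whole skin, a change in the number of cells of a type and a change in RNA per cell cannot be told apart.

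Of the 7 cluster products, 6 were tested and 6 were higher in NcstnΔKC skin at an adjusted p of 0.05 (limma, Benjamini-Hochberg over 222 miRNAs). Of all miRNAs tested, 14.9% passed as higher, 27.9% as lower and 42.8% in either direction. Only miR-20a-5p, miR-19b-3p and miR-92a-3p were detected on all 8 arrays, and all 3 were higher, against 15.5% of the 174 miRNAs detected on all arrays. In order of log2 difference they were 18, 20 and 26 of the 222 (miR-20a-5p, miR-19b-3p and miR-92a-3p). The other 3, miR-17-3p, miR-18a-5p and miR-19a-3p, were tested only because all 4 NcstnΔKC arrays detected them. Of the 12 miRNAs that entered in this way, 50% were called higher, so the calls of these 3 carry less weight. The seventh product, miR-17-5p, was detected on no array.

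**Figure D1:**
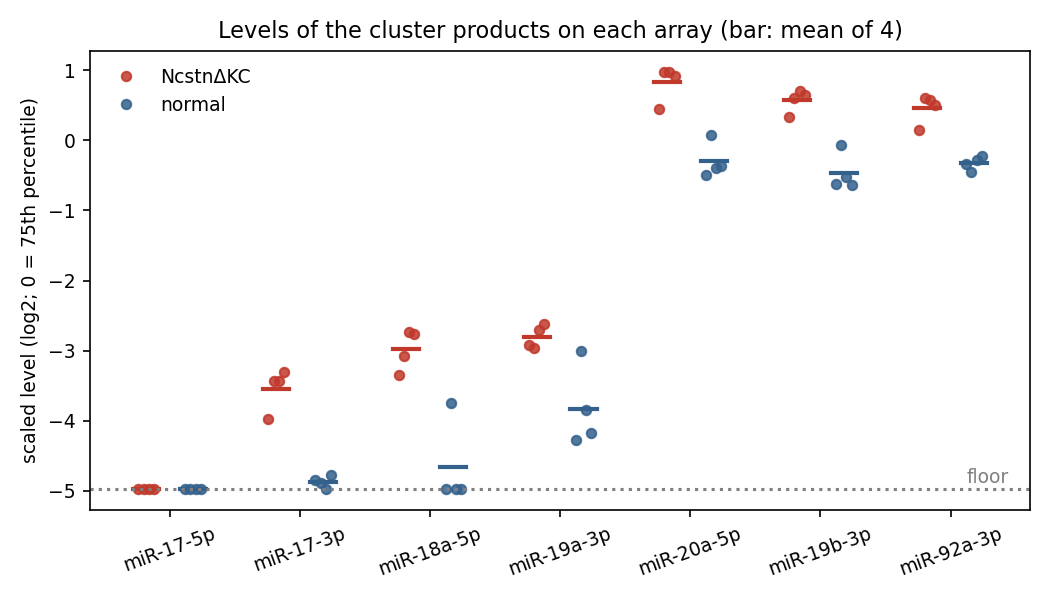
Scaled level (log2, 0 being the 75th percentile of the detected probes) of the 7 cluster products on each array, in transcript order, with NcstnΔKC points left of normal points, bars at the mean of 4 arrays and a dotted line at the floor of -4.97. The groups are separated for 6 products, with NcstnΔKC higher, as they are for 13.5% of the 222 miRNAs tested (36.9% in either direction). For miR-17-3p and miR-18a-5p most normal points lie at or near the floor, and miR-17-3p, miR-18a-5p and miR-19a-3p were tested only through NcstnΔKC detection. Every point of miR-17-5p sits at the floor. Heights of different miRNAs come from different probes and are not comparable.

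The AAAGUGC seed, which miR-17-5p and miR-20a-5p share, is known to target regulators of the cell cycle such as E2f1 and Cdkn1a. The level of mmu-miR-20a-5p was 0.45, 0.98, 0.97 and 0.92 on NcstnΔKC arrays 1 to 4, against -0.49, 0.07, -0.40 and -0.36 on normal arrays 1 to 4. NcstnΔKC 1 was the lowest array of its group and normal 2 the highest of the other, yet all NcstnΔKC values lay above all normal values. The means were 0.83 ± 0.26 in NcstnΔKC skin and -0.30 ± 0.25 in normal skin (SD, n = 4 each). The log2 difference was 1.13 ± 0.19 (SE, limma adjusted p = 0.003), or 2.18-fold, and 1.36 relative to the median of all miRNAs tested. Both probes gave the same picture, with probe differences of 1.16 and 1.11. The spots of a probe on an array varied by 1.93% to 5.53% (coefficient of variation over up to 15 spots), less than the spread between arrays.

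In contrast, miR-17-5p had no usable signal. Its probes are short, and are shown beside those of miR-20a-5p because they share their first 11 bases. Capitals mark the bases after that stretch, and each probe is written 5′ to 3′ as the complement of the 3′ end of its miRNA.
miR-17-5p, 12-base probe: ctacctgcactG
miR-17-5p, 13-base probe: ctacctgcactGT
miR-20a-5p, 18-base probe: ctacctgcactATAAGCA
miR-20a-5p, 19-base probe: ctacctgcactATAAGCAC

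The miR-17-5p probes cover positions 12 to 23 and 11 to 23 of the miRNA. Both match miR-106a-5p as perfectly as miR-17-5p, and the files list both names for them, so a signal here would not have told these miRNAs apart. The 13-base probe read 17.9, 27.4, 29.1 and 34.4 intensity units on NcstnΔKC arrays, against 5.56, 16.1, 6.99 and 16.6 on normal arrays. These unscaled values did not overlap between the groups, but none was well above background. The 12-base probe was below 0 on every array, at -9.67 to -4.03 on NcstnΔKC arrays and -17.1 to -12.7 on normal arrays. Of all probes of 12 or 13 bases, 82 of 628 (13.1%) were detected on at least 1 array, close to 13% of probes of any length. These shares cover different miRNAs, and whether probe length played a part for miR-17-5p was not tested. In the authors' deposited log2 values, whose normalization and centring are unknown, miR-17-5p stood at 3.51, 3.72, 3.8 and 3.75 in NcstnΔKC skin, against 3.32, 3.38, 3.3 and 3.39 in normal skin. No fold is given for it, since neither group was well above background.

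The opposite arm of the same hairpin, miR-17-3p, was detected in NcstnΔKC skin only. The Mir17 hairpin is shown with both mature arms in capitals, the 5′ arm being miR-17-5p and the 3′ arm miR-17-3p (GRCm38.p6, chr14:115043671-115043754, plus strand).
Mir17 hairpin: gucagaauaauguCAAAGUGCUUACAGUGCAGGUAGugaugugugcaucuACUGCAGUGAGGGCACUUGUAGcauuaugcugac

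The level of mmu-miR-17-3p was -3.98, -3.44, -3.44 and -3.31 on NcstnΔKC arrays, against -4.84, -4.89, -4.97 and -4.78 on normal arrays. All NcstnΔKC values were above all normal values, and the normal values lay at or just above the floor. It averaged -3.54 ± 0.30 in NcstnΔKC skin and -4.87 ± 0.08 in normal skin (SD, n = 4 each), a log2 difference of 1.33 ± 0.17 (SE, limma adjusted p = 0.00166). Because no normal array detected it, the change is a bound. With each normal array set to the higher of its own value and the array's lowest detected signal, a mean of -4.74, miR-17-3p was at least 2.3-fold higher in NcstnΔKC skin, a bound that holds only under this scaling, background correction and sum over probes. The call rested on the 15-base probe, at 66.1 to 87.9 intensity units on NcstnΔKC arrays and 39.2 to 46.3 on normal arrays. The 14-base probe was well above background on no array, at 7.21 to 19.7 on NcstnΔKC arrays and -2.80 to 1.67 on normal arrays. The log2 difference of the 15-base probe alone was 1.11. For miR-17-3p the difference was 0.91 in the authors' deposited log2 values, 0.52 with normexp background correction and 0.43 with a floor 2 times as high (limma adjusted p = 0.0654). With the scanner software's totals it was -0.043.

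**Figure D2:**
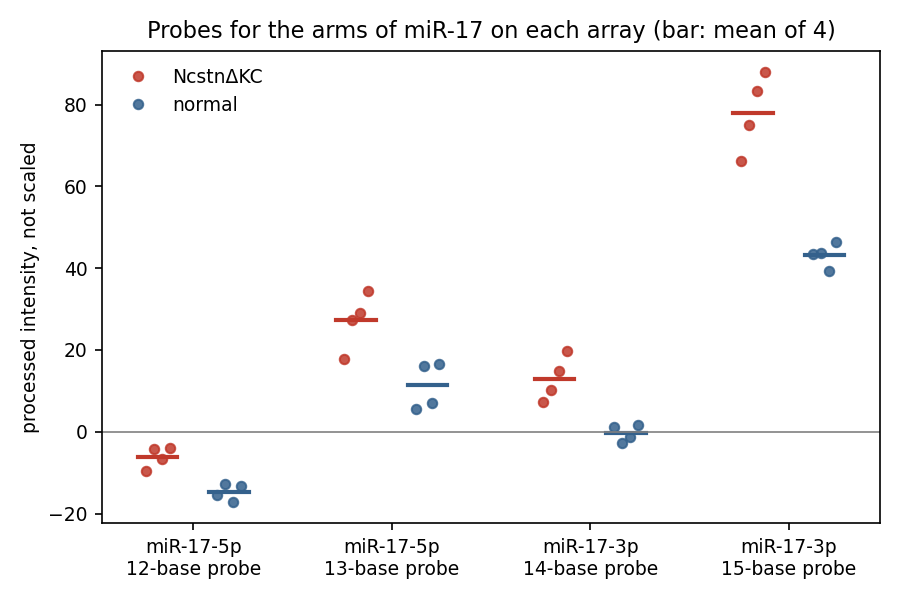
Processed intensity (linear scale, not scaled between arrays) of the probes for miR-17-5p and miR-17-3p on each array, NcstnΔKC left of normal, with bars at the mean of 4 arrays. Of the 4 probes, only the 15-base probe of miR-17-3p was well above background, on the 4 NcstnΔKC arrays, where it read 66.1 to 87.9.

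The remaining arms of the cluster were at background. The array carries miR-18a-3p, miR-19a-5p, miR-20a-3p, miR-19b-1-5p and miR-92a-1-5p, and 0 of these 5 were detected on any array.

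The product mmu-miR-18a-5p has a seed of its own, AAGGUGC, which differs from that of miR-17-5p by A4G, and is known to target connective tissue growth factor. Its level was -3.35, -3.07, -2.74 and -2.77 on NcstnΔKC arrays, against -4.97, -3.75, -4.97 and -4.97 on normal arrays. Normal 2 was the only normal array to detect it, and the other 3 normal values were at the floor. It averaged -2.98 ± 0.28 in NcstnΔKC skin and -4.67 ± 0.61 in normal skin (SD, n = 4 each). The log2 difference was 1.68 ± 0.30 (SE, limma adjusted p = 0.00404), or 3.21-fold, a value that the floor holds down. With the software's totals its adjusted p was 0.288, and with all 1881 miRNAs tested it was 0.102. Its relative on the X chromosome, miR-18b-5p, differs by A18U and A20U and was detected on no array.

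The miRNAs of the GUGCAAA pair account for much of the oncogenic activity of the cluster in mouse lymphoma. The level of mmu-miR-19b-3p was 0.33, 0.61, 0.70 and 0.64 on NcstnΔKC arrays, against -0.63, -0.06, -0.52 and -0.64 on normal arrays. The groups did not overlap, and normal 2 was again the highest normal array. Its means were 0.57 ± 0.17 in NcstnΔKC skin and -0.47 ± 0.27 in normal skin (SD, n = 4 each), with a log2 difference of 1.03 ± 0.17 (SE, limma adjusted p = 0.00307), or 2.05-fold.

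The level of mmu-miR-19a-3p was -2.92, -2.96, -2.71 and -2.62 on NcstnΔKC arrays, against -4.28, -3.01, -3.85 and -4.18 on normal arrays. Here NcstnΔKC 2 and normal 2 nearly met, at -2.96 and -3.01, although the groups stayed apart. It averaged -2.80 ± 0.16 in NcstnΔKC skin and -3.83 ± 0.58 in normal skin (SD, n = 4 each), and 2 of 4 normal arrays detected it. The log2 difference was 1.02 ± 0.28 (SE, limma adjusted p = 0.0191), or 2.03-fold. This call was lost without NcstnΔKC 3 (adjusted p = 0.0547), without normal 4 (0.0523), with spike-in scaling (0.0569) and with the software's totals (0.0535). The probes of the pair are shown because they differ at a single internal base, in capitals, and hybridisation of miR-19b-3p to the probes of miR-19a-3p was not tested.
miR-19a-3p, 21-base probe: tcagttttgcatAgatttgca
miR-19b-3p, 20-base probe: tcagttttgcatGgatttgc

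The last product of the transcript, mmu-miR-92a-3p, carries the seed AUUGCAC and is known to target integrin alpha 5 in endothelial cells. Its level was 0.15, 0.61, 0.57 and 0.51 on NcstnΔKC arrays, against -0.34, -0.45, -0.28 and -0.22 on normal arrays. NcstnΔKC 1 was the lowest of its group but above all normal arrays, and normal 2, the highest normal array for miR-20a-5p and both miR-19 products, was here the lowest. The means were 0.46 ± 0.21 in NcstnΔKC skin and -0.32 ± 0.10 in normal skin (SD, n = 4 each). The log2 difference was 0.78 ± 0.15 (SE, limma adjusted p = 0.00456), or 1.72-fold, the smallest among the 6 products tested, and its probes differed by 0.91 and 0.76. Its call was lost with spike-in scaling (limma adjusted p = 0.0507) and with the percentile over all probes (0.157).

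The size of the differences depended on the scaling, and their sign did so for miR-17-3p alone. Over the 9 scalings, background corrections and sources of values compared, the log2 difference of miR-20a-5p ran from 0.82 to 2.0, that of miR-19b-3p from 0.73 to 1.90 and that of miR-92a-3p from 0.48 to 1.65. Relative to the median of all miRNAs under the same setting these ranges narrowed to 1.06 to 1.41, 0.97 to 1.41 and 0.76 to 1.19. The narrowing is partly by construction, since dividing an array by a single factor moves the median as well. For the dim products the log2 differences ran from -0.04 to 2.04 (miR-17-3p), 0.74 to 2.49 (miR-18a-5p) and 0.52 to 1.89 (miR-19a-3p). Relative to the median they ran from 0.25 to 2.1, 0.81 to 2.33 and 0.59 to 1.66. The percentile over all probes, which moved the median of all miRNAs to 0.64, gave 1 call in the cluster in place of 6, and 11 over all miRNAs in place of 95. That percentile lay between 0.826 and 6.54 intensity units on single arrays.

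**Figure D3:**
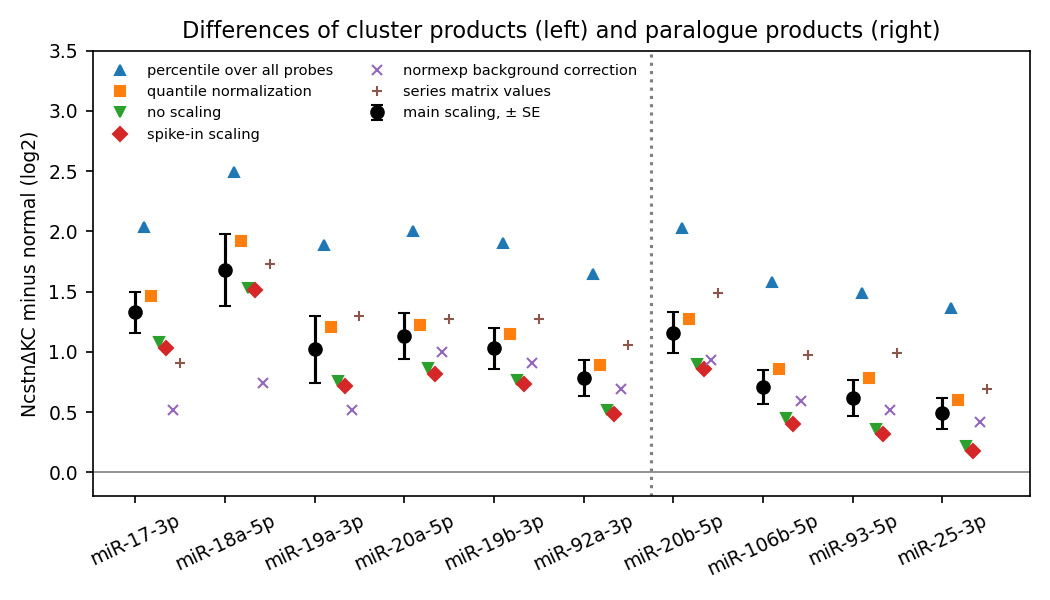
Log2 difference, NcstnΔKC minus normal, of the 6 tested cluster products (left of the dotted line) and the 4 tested paralogue products (right), n = 4 arrays a group. Black points with bars are the main scaling ± SE and coloured marks are other processing choices, all of which lie above 0; the scanner software's totals, with miR-17-3p at -0.043, are not drawn.

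Whether the products of the transcript changed by the same amount was tested on the difference between 2 products on the same array. Dividing an array by a single factor leaves this difference as it is, apart from the floor, whereas quantile normalization and cyclic loess can move it. Of 6 such comparisons, 0 passed and 0 had a raw p below 0.05 (exact two-sided permutation over 70 labelings, adjusted over the 6). The smallest raw p that 4 against 4 arrays allow is 0.0286, so a comparison that differed alone could not have passed after adjustment. The level of miR-92a-3p minus that of miR-20a-5p was -0.30, -0.38, -0.40 and -0.41 on NcstnΔKC arrays, against 0.15, -0.52, 0.12 and 0.14 on normal arrays. Every NcstnΔKC array lay below normal 1, 3 and 4, and only normal 2 lay lower still. The group difference was -0.34 (exact permutation p = 0.143, adjusted p = 0.429). For miR-18a-5p minus miR-20a-5p the means were -3.81 ± 0.17 in NcstnΔKC skin and -4.37 ± 0.37 in normal skin (SD, n = 4 each), a difference of 0.56 (exact permutation p = 0.0571, adjusted p = 0.343). In that comparison 3 normal values of miR-18a-5p were at the floor, and the sign turned with a floor 2 times as high (-0.19).

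The difference was 0.20 for miR-17-3p minus miR-20a-5p (exact permutation p = 0.257, adjusted p = 0.471). No normal array detected miR-17-3p and its normal values lay at or just above the floor, so this value is limited by the floor. With a floor 2 times as high it was -0.69. The difference was -0.10 for miR-19a-3p minus miR-20a-5p (exact permutation p = 0.657, adjusted p = 0.789) and -0.09 for miR-19b-3p minus miR-20a-5p (0.314 and 0.471). The seed pair miR-19a-3p and miR-19b-3p differed from each other by -0.01 between the groups (exact permutation p = 0.943, adjusted p = 0.943). These p-values do not show that the products changed equally. With normexp background correction 4 of the 6 comparisons passed (exact permutation, adjusted p = 0.0429 each). They were miR-17-3p (-0.48), miR-18a-5p (-0.26) and miR-19a-3p (-0.48), each minus miR-20a-5p, and miR-19a-3p minus miR-19b-3p (-0.39).

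**Figure D4:**
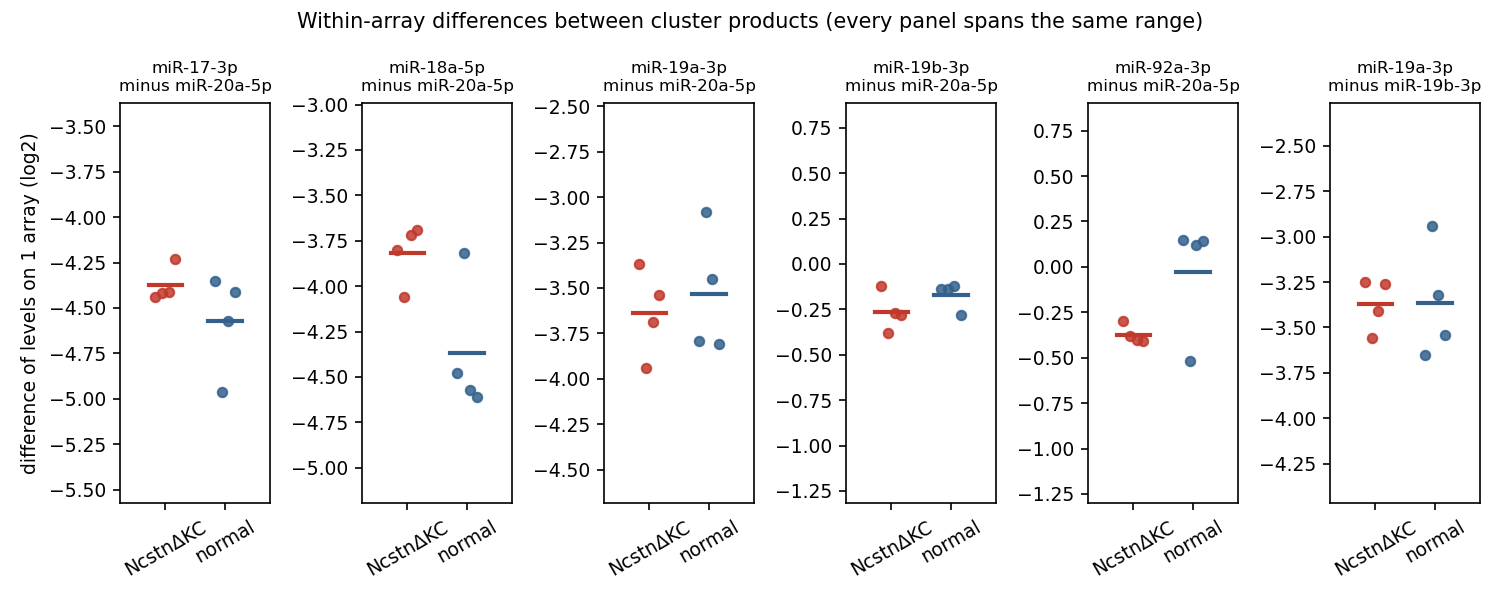
Difference between the log2 levels of 2 cluster products on the same array, with NcstnΔKC left of normal in each panel, bars at the mean of 4 arrays, and every axis spanning the same range. Normal 2 stands apart from the other normal arrays for miR-18a-5p (-3.82) and for miR-92a-3p (-0.52), each minus miR-20a-5p.

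Normal 2 moved several products together. Its level stood above the mean of the other 3 normal arrays by 1.22 for miR-18a-5p, 1.09 for miR-19a-3p, 0.49 for miR-20a-5p and 0.53 for miR-19b-3p. The same comparison gave -0.17 for miR-92a-3p, -0.03 for miR-17-3p and a median of -0.02 over all miRNAs tested. Without normal 2 the log2 differences were 1.99 for miR-18a-5p, 1.30 for miR-19a-3p, 1.25 for miR-20a-5p and 1.17 for miR-19b-3p (limma adjusted p = 0.000832, 0.00137, 0.00177 and 0.00133). Leaving out the highest normal array of a product raises its difference by construction, so these values add no support. For miR-92a-3p the log2 difference without normal 2 was 0.74 and for miR-17-3p it was 1.32 (limma adjusted p = 0.0103 and 0.00213).

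The paralogous clusters encode near copies of these products. Of 15 listed miRNAs, the products of those clusters and miR-32-5p of chromosome 4, which shares the seed of miR-92a-3p, 14 were on the array under their own name, 4 were detected and tested, and 4 were higher, with a median log2 difference of 0.66 against -0.23 over all miRNAs tested. All 4 were detected on every array, and 15.5% of the miRNAs so detected were called higher. From the X chromosome, miR-20b-5p was at -0.60, -0.19, -0.24 and -0.30 on NcstnΔKC arrays, against -1.69, -1.14, -1.62 and -1.53 on normal arrays. The groups were apart, and as for miR-20a-5p the lowest NcstnΔKC array was number 1 and the highest normal array number 2. The log2 difference was 1.16 ± 0.17 (SE, n = 4 each, limma adjusted p = 0.00204), or 2.24-fold. It differs from miR-20a-5p by U1C and U10C, so cross-hybridisation between them was not tested.

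The Mcm7 cluster showed smaller differences. Its members miR-106b-5p and miR-93-5p carry the AAAGUGC seed, and miR-25-3p carries the AUUGCAC seed of miR-92a-3p. The level of miR-106b-5p averaged -0.31 ± 0.16 in NcstnΔKC skin and -1.02 ± 0.15 in normal skin (SD, n = 4 each; 1.63-fold, limma adjusted p = 0.00573). Next, miR-93-5p averaged -0.56 ± 0.19 in NcstnΔKC skin and -1.18 ± 0.13 in normal skin (1.54-fold, 0.012). The lowest difference was that of miR-25-3p, at -0.31 ± 0.14 in NcstnΔKC skin and -0.80 ± 0.06 in normal skin (1.40-fold, 0.0176), a call lost without NcstnΔKC 3 (adjusted p = 0.0655). Groups did not overlap for any of the 4 paralogues, and NcstnΔKC values lay above all normal values in 13.5% of all miRNAs tested (36.9% did not overlap in either direction). With spike-in scaling 1 of the 4 was called, and with the percentile over all probes 0.

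By seed, 3 further AAAGUGC miRNAs were tested and 3 were higher, and 1 further AUUGCAC miRNA was tested, miR-25-3p. These are the same 4 paralogues counted above, where 15.5% of the miRNAs detected on all arrays were called higher. No miRNA outside the cluster shares GUGCAAA, and those that share AAGGUGC or CUGCAGU were not tested.

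MYC, an activator of the cluster, is also reported to lower a set of other miRNAs in lymphoma cells. Of 23 such miRNAs, all tested, 6 were lower, 1 was higher and 16 did not pass, with a median log2 difference of -0.23, equal to that of all miRNAs tested. The share called lower among all tested was 27.9%. The lowest p was that of miR-195a-5p, at 0.79, 0.50, 0.19 and 0.10 on NcstnΔKC arrays, against 1.70, 1.79, 1.44 and 1.49 on normal arrays. The groups were well apart, and it was 2.31-fold lower in NcstnΔKC skin (limma adjusted p = 0.00238). Its neighbour miR-497a-5p, from the same primary transcript, was 2.05-fold lower (0.00466). From another shared transcript, let-7c-5p was 1.54-fold and miR-99a-5p 1.64-fold lower (both 0.00972), and both had a positive difference with the percentile over all probes (0.24 and 0.15). The miRNA called higher was miR-29b-3p (0.55, adjusted p = 0.0291), and the other 2 called lower were miR-125b-5p (-0.53, 0.0203) and miR-30c-5p (-0.57, 0.0361), all 3 named after their values were seen. The other 16 had log2 differences from -1.08 to 0.89.

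The miRNAs with the most similar pattern were sought by the mean absolute distance, over the 8 arrays, between centred log2 profiles and the mean profile of miR-20a-5p, miR-19b-3p and miR-92a-3p. The 5 closest were miR-20b-5p (0.10), miR-106b-5p (0.14), miR-155-5p (0.16), miR-93-5p (0.18) and miR-677-3p (0.19), against a median of 0.71 over the other miRNAs. Thus 3 of the 5 were paralogue products, while miR-155-5p is known from activated white blood cells. Centring over the 8 arrays leaves the group difference in each profile, so a small distance largely restates a similar group difference. Within the cluster the distance was 0.17 for miR-17-3p, 0.23 for miR-19a-3p and 0.44 for miR-18a-5p. The 4 normal values of miR-677-3p sat at the floor, and its difference turned to -0.49 with the software's totals, as that of miR-155-5p did to -1.14.

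Markers of other cell types were examined beside the cluster, where a summed level mainly follows the brightest miRNAs of its list. Of 8 white blood cell miRNAs, 7 were tested, 3 were higher and 0 lower, against 14.9% higher and 27.9% lower of all miRNAs tested. Their summed scaled level was 3.28 to 9.61 on NcstnΔKC arrays and 2.2 to 3.02 on normal arrays, with miR-223-3p its brightest part throughout. Those higher were miR-511-3p, hosted by the macrophage gene Mrc1 (log2 difference 2.35 ± 0.36, limma adjusted p = 0.00238), miR-142a-3p, found throughout blood lineages (1.52 ± 0.33, 0.00792), and miR-155-5p (1.26 ± 0.22, 0.00402). Values that did not pass were 1.15 ± 0.44 for miR-223-3p of neutrophils (0.0644), 0.89 ± 0.34 for miR-150-5p of mature lymphocytes (0.0653), -0.30 ± 0.16 for miR-181a-5p (0.155) and -0.00016 for miR-342-3p (0.999). The remaining one, miR-142a-5p, was detected on 3 NcstnΔKC arrays and 0 normal arrays and was not tested. Of the tested markers, miR-155-5p and miR-150-5p were detected on 3 of 4 normal arrays and qualified through the NcstnΔKC group alone. The share called higher among the 12 miRNAs qualifying so was 50%. The 14.9% is therefore not a fair comparison for miR-155-5p, and its call carries less weight. No value of these 8 miRNAs was at the floor on any array.

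Array by array, the 3 white blood cell markers called higher differed in how they ran beside miR-20a-5p. The lowest NcstnΔKC value of miR-511-3p (-1.95) and of miR-155-5p (-3.06) was on NcstnΔKC 1, where miR-20a-5p was also lowest. Their highest normal values (-2.84 and -3.59) were on normal 2, where miR-20a-5p was also highest. A lowest NcstnΔKC value on NcstnΔKC 1 was not particular to them. It was also seen for miR-223-3p (0.70), miR-181a-5p (-2.76) and miR-342-3p (-2.07), which did not pass. For miR-150-5p (-3.50) and miR-142a-5p (-3.59) the lowest was on NcstnΔKC 2. On NcstnΔKC 2 miR-142a-3p was at -1.20, the lowest of its group, where miR-20a-5p was at its highest (0.98), and on normal 2 it was at -2.58, the lowest normal value. The 7 epithelial miRNAs were detected on all arrays, as skin should show, with a summed level of 22.7 to 30.3 on NcstnΔKC arrays and 22.5 to 27.4 on normal arrays, 0 higher and 4 lower.

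Fibroblast and smooth muscle miRNAs summed to 9.01 to 14 on NcstnΔKC arrays and 5.44 to 7.63 on normal arrays, with 3 of 5 higher and 1 lower. Higher were miR-199a-3p (log2 difference 0.69), miR-199a-5p (1.06) and miR-214-3p (1.21). The smooth muscle miR-145a-5p was lower (-1.14, limma adjusted p = 0.045) and the smooth muscle miR-143-3p, at -0.52, did not pass. The sum therefore does not show a rise of smooth muscle miRNAs. Striated muscle miRNAs summed to 6.41 to 38.3 on NcstnΔKC arrays and 17.5 to 84.1 on normal arrays, with 0 of 4 higher and 1 lower. All these counts stand against 14.9% higher and 27.9% lower of all miRNAs tested. Endothelial miRNAs summed to 2.75 to 3.35 on NcstnΔKC arrays and 2.38 to 3.08 on normal arrays. Red blood cell miRNAs summed to 1.05 to 2.83 on NcstnΔKC arrays and 0.688 to 1.84 on normal arrays, with 0 higher and 1 lower of 2 tested and miR-144-3p detected on no array. Of the neuronal miRNAs, miR-124-3p and miR-9-5p were detected on no array. The part of these cells in the cluster's differences was not tested.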

How the data were processed

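Total RNA was labelled with Cy3 and hybridised to 1-colour Agilent miRNA arrays, per the labels' protocols. Per the file headers, Agilent Feature Extraction 10.7.1.1 gave each spot an intensity after subtraction of a fitted background, with no normalization between arrays. The authors' deposited log2 values of the same arrays served as an alternative; their normalization and centring are not given in the sources used here.

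Control and outlier spots were left out (0 spots were saturated). Detection of a probe required the well-above-background flag in 50% or more of its spots. Probe means of the intensity were scaled to the 75th percentile of the 301 probes detected on all 8 arrays, summed per miRNA, set to at least 0.0318 and logged. The 222 miRNAs detected on all 4 arrays of a group entered limma 3.58.1 (R 4.3.3; group alone, prior degrees of freedom 2.46, threshold 0.05), after the script was tested on simulated data. In 18 of them at least 1 value was at the floor. Differences between products were tested by exact permutation. The planned partner for these, miR-17-5p, was not detected on any array, so miR-20a-5p took its place after the data were seen, and 6 comparisons replaced 7.

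The named miRNAs were the members and other arms of the cluster, every tested paralogue, the 4 miRNAs of the MYC list with the smallest p, the 5 with the most similar profile and the white blood cell markers. Members and lists were chosen with earlier results of these data known. Mature sequences came from RefSeq (GRCm38.p6) and probe sequences from the array files.

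The alternatives tried were scaling by quantiles, by cyclic loess, by 4 spike-in control RNAs, by the percentile over all probes or not at all, and normexp (offset 50). Others were the scanner software's totals, the brightest probe, log2 values averaged over probes, different floors and filters, trended robust eBayes, array weights, a replicate block and leaving out each array in turn.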

Additional observations from a re-analysis of the deposited data

Results flagged for a closer look

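In 6 of 24 groups of 4 arrays examined, 1 array stood farther from the others than Dixon's 95% limit allows. Chance gives about 1 in 20 for independent groups of values without ties. These groups are not independent, since the differences between products reuse the levels of the same products, so the 6 are not an excess over chance. The level of miR-18a-5p in normal 2 was -3.75, while the other 3 normal arrays were at the floor, so any value above the floor would have been flagged. The level of miR-20a-5p in NcstnΔKC 1 was 0.45, below the 0.92 to 0.98 of the other NcstnΔKC arrays.

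The other 4 were differences between products on the same array. On normal 2, miR-18a-5p minus miR-20a-5p was -3.82, above the other normal arrays, and miR-92a-3p minus miR-20a-5p was -0.52, below them. On NcstnΔKC 4, miR-17-3p minus miR-20a-5p was -4.23, above its group. On normal 4, miR-19b-3p minus miR-20a-5p was -0.28, below its group.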

How the results depend on the processing

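The 95 calls over all miRNAs became 11 with the percentile over all probes, 19 with all 1881 miRNAs tested, 61 with those detected on all arrays and 149 with array weights, and leaving out 1 array gave 59 (without NcstnΔKC 3) to 94. The 6 cluster calls became 1, 2 and 3 under the first 3 of these settings, 3 with the software's totals, 4 with spike-in scaling and 5 to 6 without 1 array. The 4 paralogue calls became 0 with the percentile over all probes, 1 with spike-in scaling, 1 with all miRNAs tested and 3 to 4 without 1 array. The 7 MYC list calls became 4 with quantile normalization, 0 with the percentile over all probes, 13 with no scaling, 1 with all miRNAs tested, 17 with array weights and 4 to 8 without 1 array (4 without NcstnΔKC 3, NcstnΔKC 4 or normal 4). The 0 calls among differences between products became 4 with normexp and stayed 0 without any 1 array, though a comparison that differed alone could not have passed. Testing fewer or more miRNAs changes these counts by construction; the other causes were not tested.

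The sign turned as follows. For miR-17-3p minus miR-20a-5p it did so with normexp (-0.48), totals (-1.05), mean log2 (-0.58), the higher floor (-0.69) and the deposited log2 values (-0.36). For miR-18a-5p minus miR-20a-5p the values were -0.26 (normexp), -0.32 (mean log2) and -0.19 (higher floor). For miR-19a-3p minus miR-20a-5p they were 0.32 (cyclic loess), 0.36 (totals), 0.03 (deposited values) and -0.20 to 0.05 without 1 array. For miR-19a-3p minus miR-19b-3p they were 0.06 (quantile), 0.41 (cyclic loess), 0.45 (totals), 0.03 (deposited values) and -0.11 to 0.13 without 1 array. With the totals, miR-17-3p turned to -0.043, miR-155-5p to -1.14, miR-677-3p to -0.49 and miR-150-5p to -1.49. With the percentile over all probes, let-7c-5p turned to 0.24, miR-99a-5p to 0.15, miR-181a-5p to 0.57 and miR-342-3p to 0.87. The last, near 0 throughout, was also 0.11 (quantile), 0.12 (cyclic loess), 0.082 (normexp), 0.002 (mean log2), 0.14 (deposited values), 0.019 (array weights) and -0.11 to 0.10 without 1 array.

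Same-numbered arrays shared a slide column, and the main fit used no pairing. Their deviations from the group means did not run together (correlations of -0.44, 0.20, -0.26 and -0.23, and no array correlated best with its own number). With a replicate block the calls numbered 71 over all miRNAs, 5 in the cluster, 4 among paralogues and 5 in the MYC list, miR-19a-3p being lost (adjusted p = 0.0514). Signal over background limits miR-17-5p, miR-17-3p, miR-18a-5p and miR-19a-3p.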
